A study of Homo sapiens with 10 samples.

Results

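H4R3me2s, the symmetric dimethylation of arginine 3 on histone H4, was followed across 10 genes of the axon and its cytoskeleton: MAPT, MAP2, MAP1B, DCLK1, STMN2, GAP43, DPYSL2, DPYSL3, ANK2 and ANK3. They are 10 of the 19974 protein-coding genes annotated on chromosomes 1 to 22 and X. A peak was assigned to a gene when it overlapped the RefSeq gene span (GRCh38) or the 2 kb on either side by 1 bp or more. The genes were chosen by hand with their peaks in the lists of these same libraries and merged groups in view, so counts that set BDNF+Dox cells against other cells are descriptions without a test.

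All cells were SH-SY5Y, derived from a human neuroblastoma and able to differentiate into neuron-like cells, and all were grown with zeocin in the medium. BDNF+Dox cells (3 libraries) received 10 µM retinoic acid for 6 days, then BDNF (a neurotrophin, 50 ng/ml) for 4 days, with α-synuclein induced through a Tet-on system by 1 µg/ml doxycycline over 3 days. BDNF cells (3 libraries) had the same 10 days of differentiation without doxycycline, and Naive cells (3 libraries) were left undifferentiated. A single Input library made without antibody was the background for all 9 ChIP libraries. The labels give neither the number of clones nor separate cultures for the replicates, so the spread between libraries may be technical. No doxycycline-treated cells without the construct were analysed here, so drug and protein cannot be told apart. Peak lists carry no expression values, so neither the cell type nor the induction could be checked against marker genes.

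The mark is written mainly by the methyltransferase PRMT5 and is known chiefly for its association with gene repression. An axon is built on bundled microtubules that proteins of the tau and MAP families stabilise, stathmins destabilise and collapsin response mediator proteins supply with tubulin. Ankyrins tie membrane proteins to the spectrin and actin skeleton, and ankyrin-G assembles the axon initial segment. Retinoic acid followed by BDNF is a standard way to make SH-SY5Y cells extend neurites.

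The 9 libraries kept between 17164402 and 18928589 reads and held between 4536 and 12207 narrow peaks. In these lists between 16 and 58 peaks had a q of 0.05 or less. Each pair of libraries was taken once, in the order BDNF+Dox, BDNF, Naive and then replicate number. Of the peaks of the first library, between 0.405 and 1.15% overlapped the second within a group and between 0.403 and 1.5% between groups. Shares of the peaks of the second library can differ from these. Lists of different length were put on a common scale by giving peaks in the genes per 1000 peaks of the library.

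No peak lay over an annotated transcription start in the 7 genes whose starts were matched. RefSeq start windows (250 bases before to 50 after the start, GRCh38.p14) were matched for 7 of the 10 genes, 25 windows in all, and those of MAPT, DPYSL2 and STMN2 were not used here. None of the 47 library peaks in the 7 genes overlapped one of these windows, and the nearest centre lay 2.93 kb from a start. The 13 pooled narrow peaks over BDNF and 15 over Naive in the 7 genes also missed every window. A window holds 300 bases, while each gene spans over 50 kb. No share for the start windows of all genes stands beside these counts, so nothing is read from them. A second MAP2 start, whose window is not shown, lay nearer to the edge of a narrow peak than any ANK2 start (2.21 against 2.84 kb). The window nearest to a narrow peak within MAP2, the nearest within ANK2 and the single window of GAP43 are shown, with each CG dinucleotide in capitals.
MAP2, chr2:209579357-209579656, plus strand: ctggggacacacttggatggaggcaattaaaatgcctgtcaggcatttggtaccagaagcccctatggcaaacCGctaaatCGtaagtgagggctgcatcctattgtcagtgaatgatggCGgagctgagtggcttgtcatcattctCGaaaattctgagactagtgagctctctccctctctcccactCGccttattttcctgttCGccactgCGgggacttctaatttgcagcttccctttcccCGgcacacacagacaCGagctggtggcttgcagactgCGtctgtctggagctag
ANK2, chr4:113292737-113293036, plus strand: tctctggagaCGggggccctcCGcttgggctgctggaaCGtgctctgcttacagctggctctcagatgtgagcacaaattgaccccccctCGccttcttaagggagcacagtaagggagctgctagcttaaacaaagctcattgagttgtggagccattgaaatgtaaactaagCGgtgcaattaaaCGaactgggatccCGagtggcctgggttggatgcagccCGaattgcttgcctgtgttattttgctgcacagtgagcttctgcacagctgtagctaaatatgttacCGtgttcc
GAP43, chr3:115623260-115623559, plus strand: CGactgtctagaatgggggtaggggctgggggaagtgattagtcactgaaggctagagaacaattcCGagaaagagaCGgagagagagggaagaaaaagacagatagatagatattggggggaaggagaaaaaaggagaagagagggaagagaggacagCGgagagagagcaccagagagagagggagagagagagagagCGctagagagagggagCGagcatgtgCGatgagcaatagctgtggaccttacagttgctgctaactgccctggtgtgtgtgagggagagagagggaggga
The MAP2 window holds 10 CG dinucleotides, the ANK2 window 9 and the GAP43 window 7, against a median of 14 over all 35116 windows, of which 96.0% hold at least 1. The letters TATAAA, searched on both strands and sharing no CG, occurred in 3 of the 25 windows and in 11.5% of all windows. The narrow peak nearest to the MAP2 start was a pooled one, centred 2.07 kb downstream in the list over BDNF and 2.05 kb in the list over Naive. The peak nearest to this ANK2 start, centred 2.93 kb downstream, belonged to Naive replicate 2. For GAP43 the nearest narrow peak was centred 22.4 kb inside the gene.

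Across the 10 genes, BDNF+Dox libraries held 10, 11 and 8 peaks over Input, BDNF libraries 4, 1 and 4, and Naive libraries 8, 7 and 6. In these raw counts BDNF+Dox and BDNF libraries did not overlap. The Naive libraries lay between them, with 1 of 3 level with the lowest BDNF+Dox library. On the common scale the Naive libraries (0.655 to 1.19 per 1000) overlapped the BDNF+Dox libraries (0.920 to 1.58). The BDNF libraries (0.220 to 0.648) lay below both, by little against the lowest Naive library. Per 1000 library peaks the mean was 1.26 ± 0.33 in BDNF+Dox cells, 0.483 ± 0.230 in BDNF cells and 0.867 ± 0.282 in Naive cells (SD, n = 3 each). All protein-coding genes together also separated these groups, with 419, 432 and 451 of 1000 peaks in BDNF+Dox libraries against 382, 413 and 414 in BDNF libraries. They took 434 ± 16.3 of 1000 peaks in BDNF+Dox cells, 403 ± 18.4 in BDNF cells and 385 ± 11.2 in Naive cells. The BDNF+Dox to BDNF ratio of means was thus 2.60 for the 10 genes and 1.08 for all protein-coding genes. At a −log10 p of 3 or more the BDNF+Dox libraries spanned 0.605 to 1.70 and the BDNF libraries 0.279 to 0.740 peaks per 1000, so the groups then overlapped. They also overlapped when 10 kb on each side was counted, with 1.01 to 1.73 in BDNF+Dox and 0.441 to 1.13 in BDNF libraries.

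**Figure D1:**
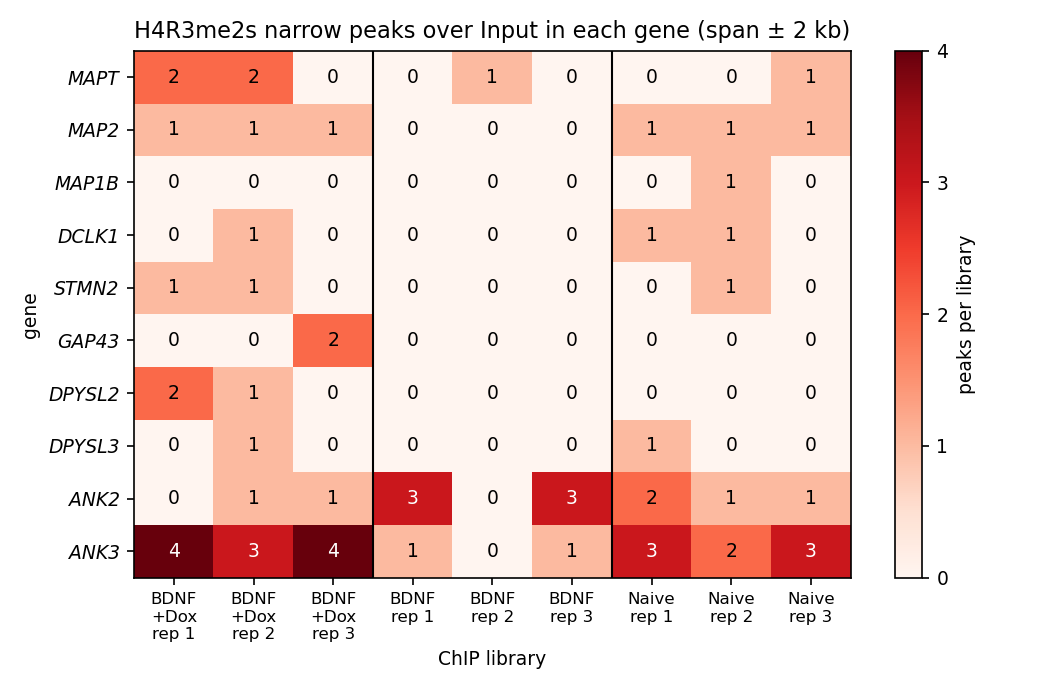
Number of narrow H4R3me2s peaks over Input in each gene (rows, span with 2 kb on each side) and each ChIP library (columns, grouped as BDNF+Dox, BDNF and Naive). ANK3 has 4, 3 and 4 peaks in the BDNF+Dox libraries, and ANK2 has 3, 0 and 3 in the BDNF libraries. All but 1 of the BDNF entries are 0 outside ANK2 and ANK3.

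**Figure D2:**
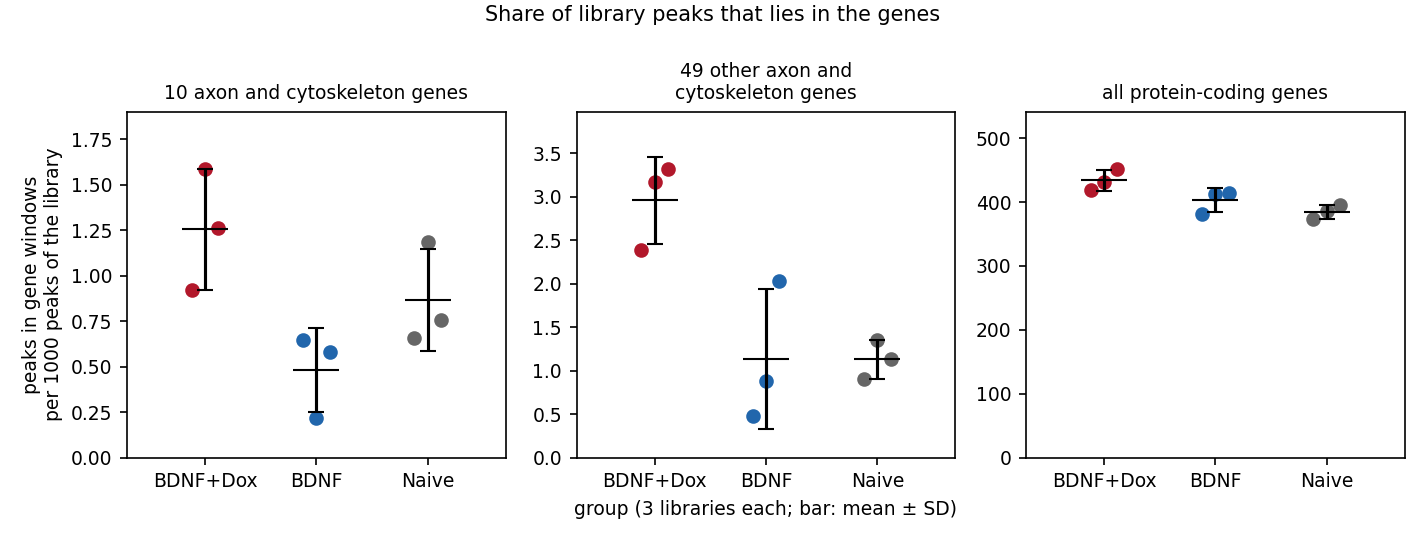
Peaks in the gene windows per 1000 peaks of the library for the 10 genes, for 49 further axon and cytoskeleton genes and for all protein-coding genes. Points are libraries and bars the mean ± SD of 3. BDNF+Dox libraries lie above BDNF libraries in all 3 panels, all protein-coding genes included, whose share runs from 373 to 451 over the 9 libraries.

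The peaks themselves were weak. The 59 library peaks in the 10 genes had a median fold over Input of 3.53 and a median pileup of 6.62 stacked fragments, against 3.47 and 6.71 over all library peaks. Their pileup ran from 4.51 to 9.41, so each rests on few fragments. None had a q of 0.05 or less, and the smallest q, 0.143, belonged to an ANK2 peak of Naive replicate 2. A −log10 p of 5 or more was reached by 0 of 29 BDNF+Dox peaks, 0 of 9 BDNF peaks and 5 of 21 Naive peaks. No share of all library peaks at this threshold stands beside these counts, so nothing is read from them. Over the whole libraries a q of 0.05 or less was held by 16, 31 and 26 BDNF+Dox, 32, 16 and 19 BDNF and 58, 27 and 44 Naive peaks.

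Peak density was set beside that of other long genes. All 10 members span over 50 kb, and windows of the 6258 protein-coding genes of 50 kb or more (a limit chosen after the lengths were seen) served for comparison. The 10 genes held 3.51 ± 0.56 peaks per Mb in BDNF+Dox libraries, 1.09 ± 0.63 in BDNF libraries and 2.54 ± 0.36 in Naive libraries. The long genes held 2.84 ± 0.75, 1.92 ± 0.41 and 2.72 ± 0.96 peaks per Mb in BDNF+Dox, BDNF and Naive libraries (SD, n = 3 each). The 10 genes were denser than the long genes in 2 of 3 BDNF+Dox, 0 of 3 BDNF and 1 of 3 Naive libraries. All 10 genes had a peak in at least 1 of the 9 libraries, as did 37.3% of all protein-coding genes and 76.2% of those of 50 kb or more.

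Among the microtubule-binding proteins, MAPT, which encodes tau, had 2, 2 and 0 peaks in BDNF+Dox libraries, 0, 1 and 0 in BDNF libraries and 0, 0 and 1 in Naive libraries. The groups overlapped at 0, but both libraries with 2 peaks were BDNF+Dox. The gene lies on chromosome 17 from 45894554 to 46028334 and its library peaks were centred between 56.3 and 84.8% of the span, counted from the low-coordinate end. BDNF+Dox replicates 1 and 2 shared a region from 45969740 to 45969937, the only region in the 10 genes with a peak in 2 libraries of 1 group. Replicate 1 had a pileup of 7.22 and a fold of 3.90 there, replicate 2 a pileup of 7.56 and a fold of 3.93, and both had q = 1. BDNF+Dox replicate 3 and all BDNF and Naive libraries had no peak in it.

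The same stretch of MAPT held the strongest pooled peak of the 10 genes over BDNF. Here the merged BDNF+Dox reads served as treatment and the merged BDNF or Naive reads as control. The authors' deposited table gives the MAPT peak from 45969740 to 45969944 a fold of 3.86 over BDNF (q = 0.0347, pileup 17.3), and the nearest BDNF and Naive library peaks were 16.0 and 36.0 kb away. It was the only member peak with q of 0.05 or less in either comparison. Such a q was held by 94 of all 9877 narrow peaks over BDNF and 95 of 7919 over Naive. Over Naive, MAPT had 0 narrow peaks, and of its 2 broad regions neither covered this stretch. A further MAPT peak over BDNF, from 46028231 to 46028424, crossed the high-coordinate end of the gene, at 2.41-fold (q = 1, the authors' deposited table) and with no library peak beneath it. The merged reads are those of the libraries, so pooled and library peaks are not independent.

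MAP2, a microtubule-associated protein of dendrites (chromosome 2, 209424047 to 209734112), had 1 peak in each of the 3 BDNF+Dox libraries, 0 in each BDNF library and 1 in each Naive library. The 6 peaks lay at 6 separate places between 23.9 and 93.4% of the span. It had 2 narrow pooled peaks over BDNF and 3 over Naive. The strongest began at 209581543 in both lists, at 3.14-fold over BDNF and 3.30-fold over Naive by the authors' deposited table, with q of 0.613 and 0.564. No library peak lay beneath it, and the nearest one, of a Naive library, was 32.5 kb away. MAP1B, a microtubule-binding protein of growing axons (chromosome 5, 72107475 to 72209565), had 1 peak in Naive replicate 2 and 0 in the other libraries. It was the only member without a narrow pooled peak, and its single broad region, over Naive, had q = 1 in the authors' deposited table.

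DCLK1, a doublecortin-like kinase that binds microtubules (chromosome 13, 35768652 to 36131939), had 0, 1 and 0 peaks in BDNF+Dox libraries, 0 in every BDNF library, and 1, 1 and 0 in Naive libraries. It nonetheless had 3 pooled narrow peaks in each comparison, 2 of them at the same places, and none of them within 25.5 kb of a library peak. The strongest, from 35970179 to 35970344, had folds of 3.69 over BDNF and 3.13 over Naive by the authors' deposited table, with q of 0.221 and 0.790. STMN2, a stathmin of growth cones that destabilises microtubules, spans 79611117 to 79666158 of chromosome 8. It had 1, 1 and 0 peaks in BDNF+Dox, 0 in every BDNF and 0, 1 and 0 in Naive libraries. The 3 STMN2 peaks were at 3 places, and the single narrow pooled peak, over BDNF only, was at 2.73-fold (q = 0.925, the authors' deposited table). A broad region from 79660052 lay over the peak of BDNF+Dox replicate 2 in both comparisons, at 2.59-fold over BDNF and 2.58-fold over Naive by the authors' deposited table, with q of 0.983 and 1.

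GAP43, the growth cone protein of extending and regenerating axons (chromosome 3, 115623510 to 115721483), had 0, 0 and 2 peaks in BDNF+Dox libraries and 0 in all BDNF and Naive libraries. All its narrow pooled peaks sat near its 3′ end, centred 93.5 to 96.3 kb from the start and at most 4.44 kb from the end. In both comparisons a peak spanned 115719647 to 115719886, with folds of 3.92 over BDNF and 3.93 over Naive in the authors' deposited table and q of 0.0757 and 0.0593. Over Naive, further peaks from 115716938 to 115717146 and from 115718228 to 115718390 were at 2.55-fold and 3.01-fold by the authors' deposited table, each with q = 1. A peak of BDNF+Dox replicate 3, from 115718120 to 115718373, overlapped the peak from 115718228 and lay 1.27 kb from the strongest one. The other GAP43 peak of that replicate was 22.9% into the gene with no narrow pooled peak near it, the closest broad pooled region being 5.1 kb away.

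Collapsin response mediator proteins bind tubulin and take part in growth cone guidance. DPYSL2 (CRMP2; chromosome 8, 26514031 to 26658175) had 2, 1 and 0 peaks in BDNF+Dox libraries and 0 in all 6 BDNF and Naive libraries. A peak from 26546229 stood in the pooled list over BDNF alone, and one from 26564902 to 26565115 in both, with a fold of 3.46 over BDNF and 3.47 over Naive in the authors' deposited table and q of 0.486 and 0.564. It overlapped a peak of BDNF+Dox replicate 2 (26564953 to 26565120, fold 3.69), and replicate 1 had a peak from 26565720 to 26565894, outside it. DPYSL3 (CRMP4; chromosome 5, 147390808 to 147510068) had 0, 1 and 0 peaks in BDNF+Dox libraries, 0 in every BDNF library and 1, 0 and 0 in Naive libraries. Its narrow pooled peaks differed in place between the comparisons. The one over Naive, from 147426226 to 147426419, was at 3.93-fold (q = 0.0593, the authors' deposited table), and the one over BDNF, from 147429870 to 147430101, at 2.77-fold with q = 1. The broad list over Naive also held a region from 147429870 to 147430107, at 2.31-fold (q = 1, the authors' deposited table).

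**Figure D3:**
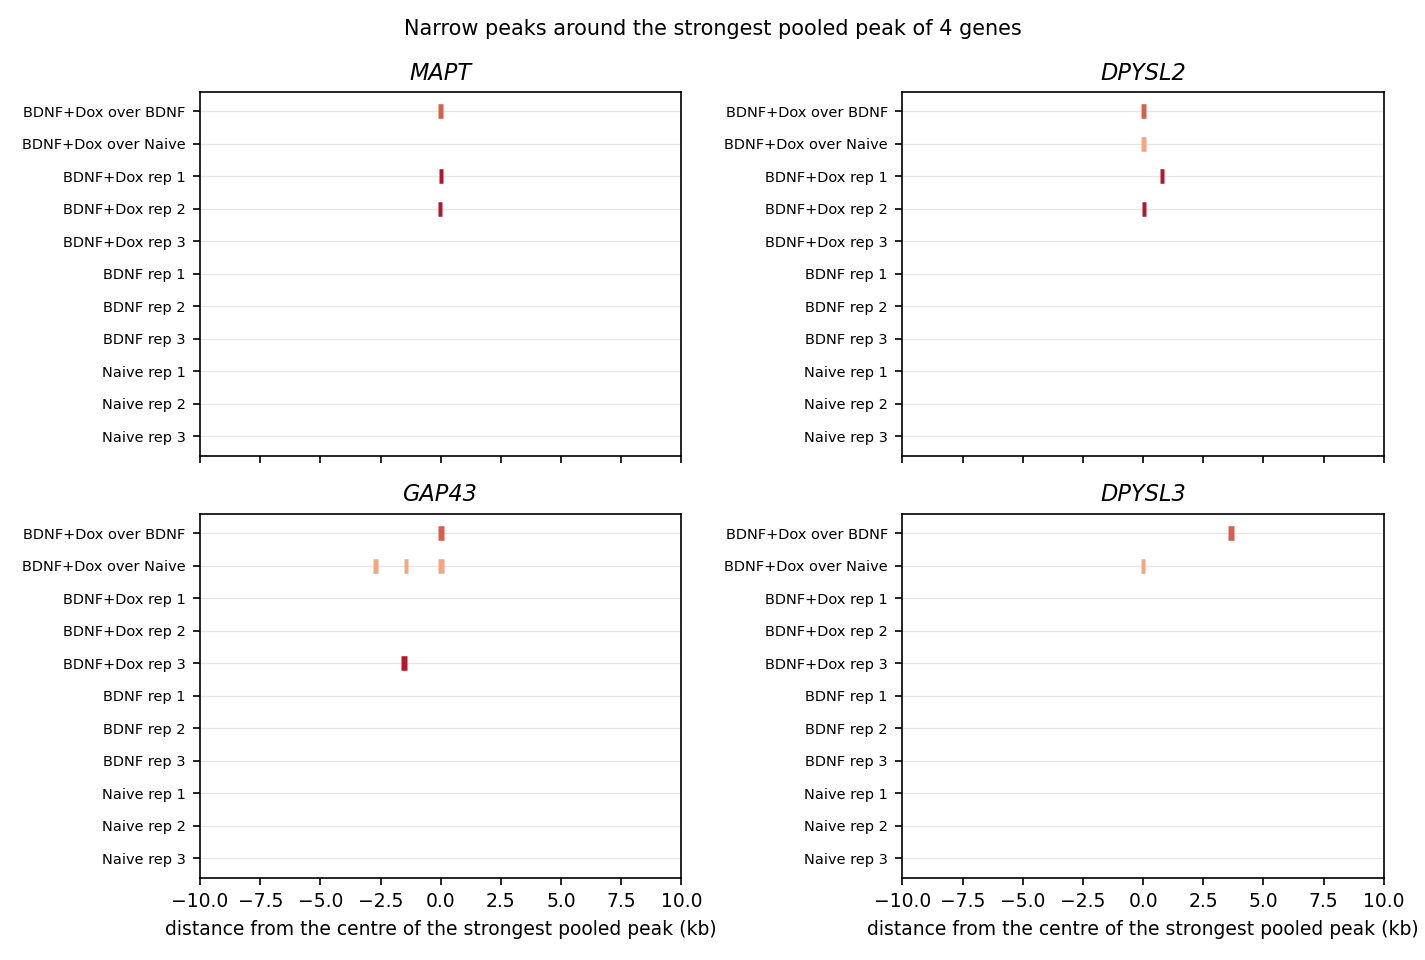
Narrow peaks within 10 kb of the strongest pooled peak of MAPT, DPYSL2, GAP43 and DPYSL3, as distance from its centre. Rows are the 2 pooled lists and the 9 libraries. In MAPT 2 BDNF+Dox libraries have a peak at the centre, in DPYSL2 1 does, in GAP43 1 has a peak with a gap of 1.27 kb between the edges, in DPYSL3 none does, and BDNF and Naive rows are empty in all 4 panels.

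The ankyrin genes are the longest of the 10 and held 33 of the 59 library peaks, 55.9% of the peaks on 51.1% of the summed gene length. ANK3 (ankyrin-G; chromosome 10, 60026298 to 60733528) had 4, 3 and 4 peaks in BDNF+Dox libraries, 1, 0 and 1 in BDNF libraries and 3, 2 and 3 in Naive libraries. BDNF libraries were lowest in this gene, below every library of the other groups. ANK2 (ankyrin-B, which lines the axon; chromosome 4, 112705622 to 113383736) had 0, 1 and 1 peaks in BDNF+Dox libraries, 3, 0 and 3 in BDNF libraries and 2, 1 and 1 in Naive libraries. BDNF libraries thus spanned the range of the other groups in ANK2 and held 6 of its 12 peaks. Outside the ankyrins, BDNF+Dox libraries held 16 peaks, BDNF libraries 1, in MAPT, and Naive libraries 9. That count leaves out ANK2, where BDNF libraries held the most peaks. With the ankyrins the totals were 29, 9 and 21, and all protein-coding genes held 10407, 7081 and 9958. The genes were chosen with these peaks in view, so nothing is read from the split.

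No place in ANK3 had a peak in more than 1 library, and its 21 library peaks were spread from 9.36 to 85.1% of the span. One pooled ANK3 peak, from 60627846, was in both lists at 2.32-fold in each (q = 1, the authors' deposited table), over a peak of BDNF+Dox replicate 2. Another in both lists, from 60366495, was at 2.25-fold over BDNF and 3.24-fold over Naive by the authors' deposited table. Its nearest library peak was 30.4 kb away. The strongest narrow ANK3 peak over BDNF, from 60719847, was at 3.09-fold (q = 0.716, the authors' deposited table). It also had no library peak beneath it, the nearest being 19.0 kb away. A peak from 60616765 to 60617015, over Naive only, lay on a peak of BDNF+Dox replicate 3, at 2.67-fold (q = 1, the authors' deposited table). In ANK2 a region from 112915910 to 112916198 joined a peak of BDNF replicate 3 and one of Naive replicate 1. It was the other of the 2 regions that had peaks in 2 libraries, out of 57 regions in the 10 genes (3.51%). Over all protein-coding windows 2.29% of regions had peaks in 2 or more of the 9 libraries. The strongest pooled ANK2 peak, from 113085155 to 113085317, was at 3.47-fold over Naive (q = 0.564) and 2.41-fold over BDNF (q = 1) by the authors' deposited table, with the nearest library peak 71.9 kb away.

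**Figure D4:**
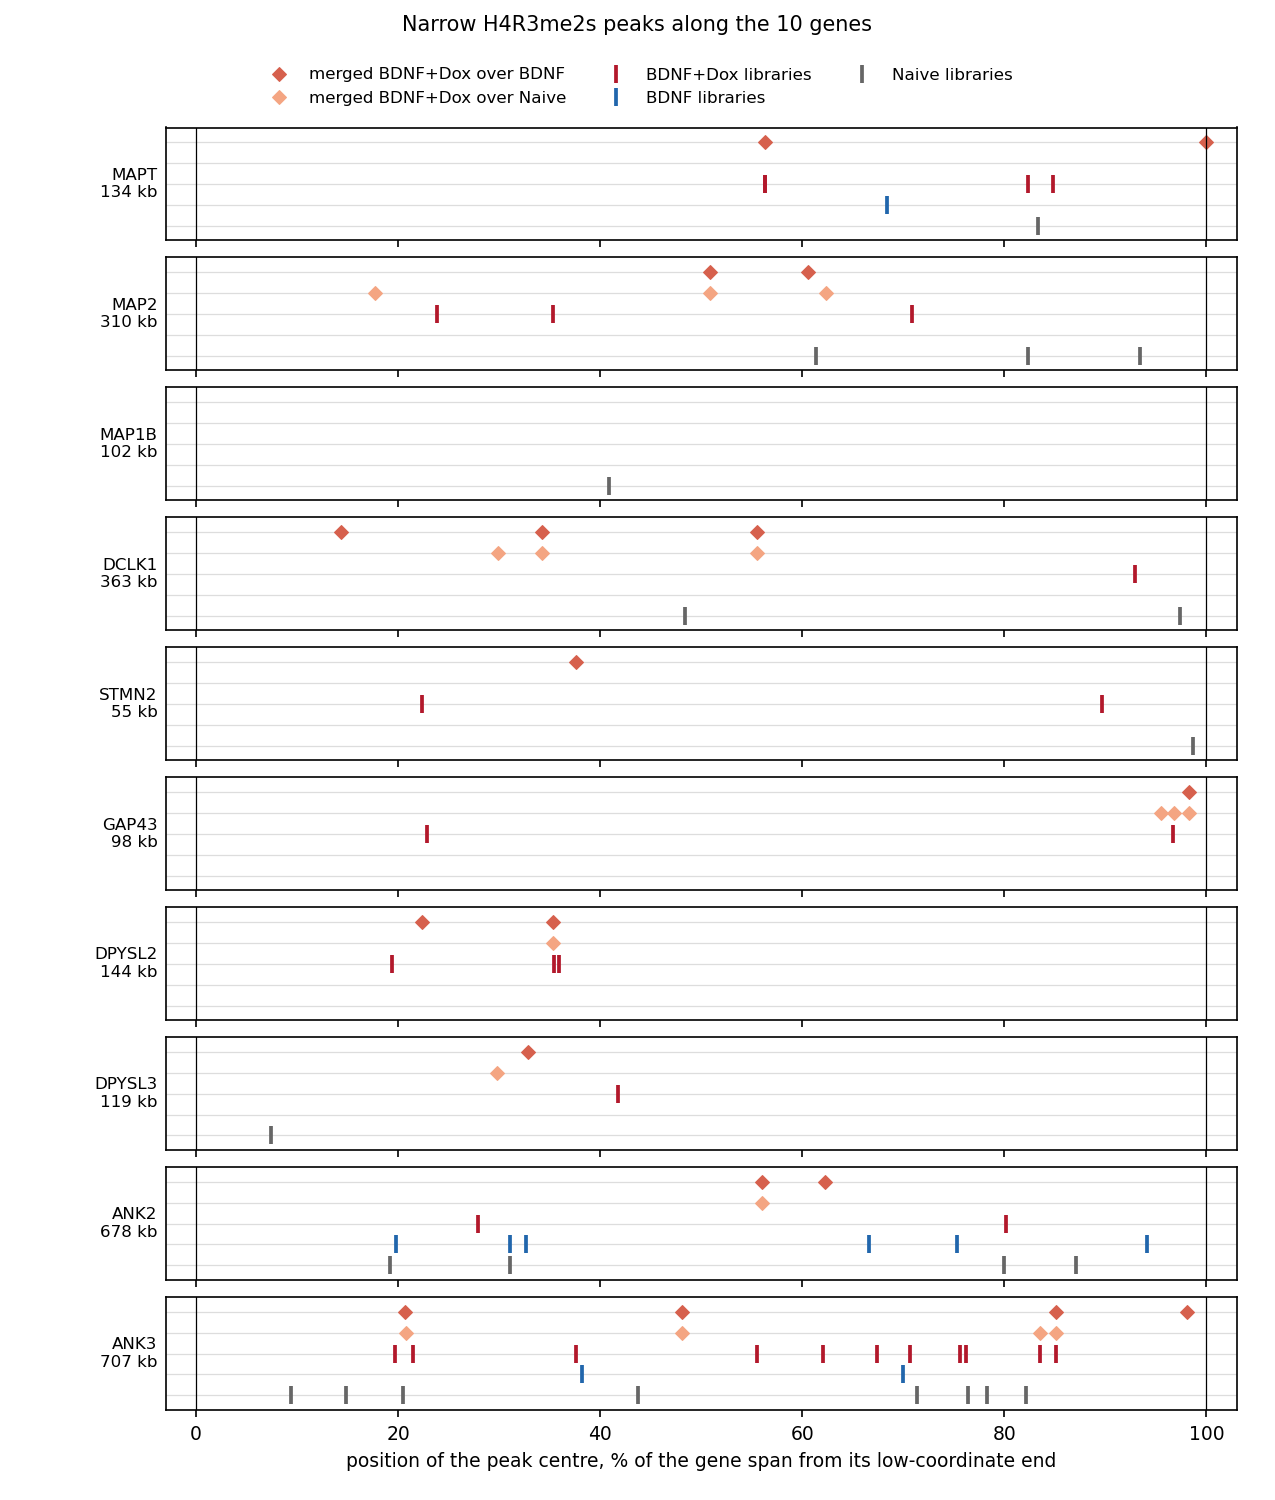
Centres of narrow peaks along each gene, as percent of the gene span from its low-coordinate end, for the 2 pooled lists (diamonds) and the libraries of each group (ticks). Peaks are scattered through the genes, apart from the GAP43 pooled peaks between 95.5 and 98.2% of its span, and few diamonds stand over a tick.

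In the pooled lists of BDNF+Dox over BDNF, 9 of the 10 genes had 18 narrow peaks in all, where 14.7% of all protein-coding genes and 36.5% of those of 50 kb or more had at least 1. Over Naive 7 of the 10 had 16 peaks, against 13.1% of all protein-coding genes and 31.9% of those of 50 kb or more. At a −log10 p of 5 or more, 4 genes had a peak over BDNF (background 2.7%, or 6.89% of genes of 50 kb or more) and 5 over Naive (background 2.3%, or 5.75%). Broad regions lay in 9 genes over BDNF (background 25.5%, or 57.9%) and in all 10 over Naive (background 23.7%, or 54.4%), 39 and 36 regions, none with q of 0.05 or less. These lists chose the genes, so nothing is read from their shares. Both comparisons use the same BDNF+Dox reads, and 8 narrow peaks stood in both, 44.4% of those over BDNF and 50% of those over Naive.

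Single libraries carried few of the pooled peaks. Of the 18 narrow peaks over BDNF, 3 overlapped a BDNF+Dox library peak (16.7%, against 17.9% of the whole list), and of the 16 over Naive 4 did (25%, against 18.3%). Only the MAPT peak had 2 BDNF+Dox libraries beneath it, with no share for the whole list to set beside it. No pooled peak overlapped a BDNF or Naive library peak. In the whole narrow list over BDNF, 0.0102% overlapped a BDNF and 0.893% a Naive library peak. In that over Naive, 0.622% overlapped a BDNF and 0.0254% a Naive library peak. Reads of BDNF or Naive cells were the control of these lists, so nothing is read from the absence. Median folds were 2.81 over BDNF and 2.89 over Naive in the authors' deposited table, against 2.77 and 2.78 for the whole lists, and 55.6 and 62.5% of the member peaks had q = 1. No library peak and no narrow pooled peak was added by the 2 kb outside the genes, while 10 library peaks and 3 narrow pooled peaks lay between 2 and 10 kb away.

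**Figure D5:**
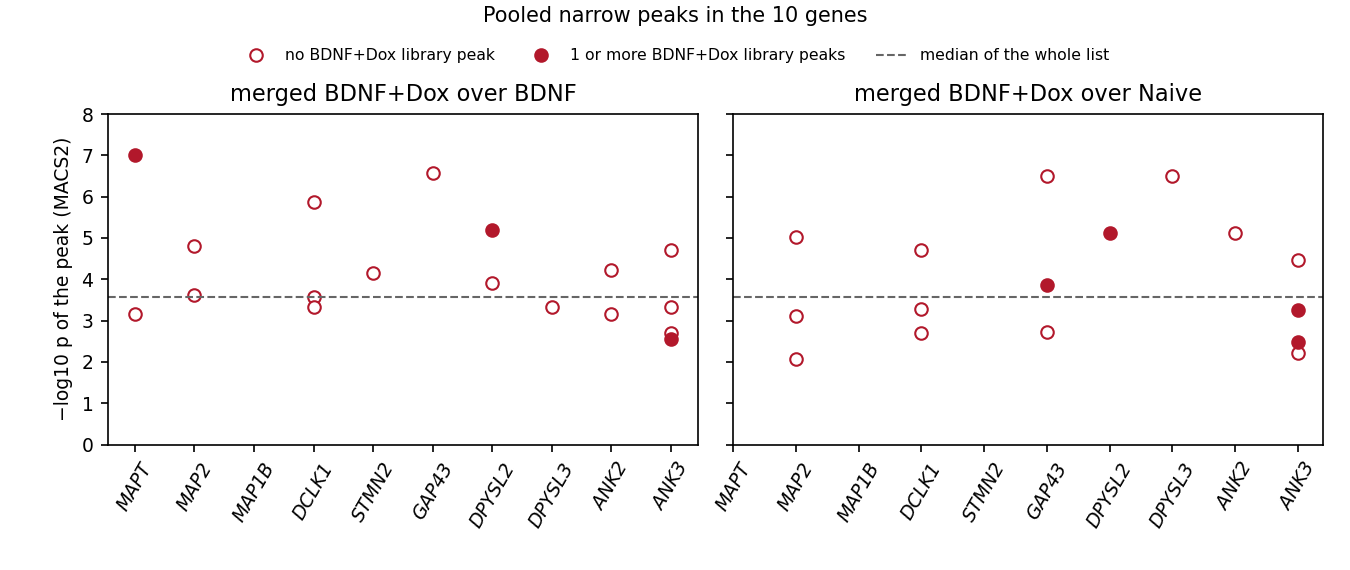
The −log10 p of each pooled narrow peak by gene, over BDNF (left) and over Naive (right). Filled points have 1 or more BDNF+Dox library peaks beneath them, and the dashed line is the median of the whole list, 3.56 in both. MAPT reaches 7.01 over BDNF and has no point over Naive.

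The comparison of BDNF with Naive cells, which differ by the differentiation, is in no pooled list, but the library lists that it rests on were in view when the genes were chosen. The members' values are therefore given without a test. ANK3 had 0.102 ± 0.089 peaks per 1000 in BDNF and 0.321 ± 0.068 in Naive cells (SD, n = 3 each), a difference of −0.22, with all 3 BDNF libraries below all 3 Naive libraries. MAP2 had 0 in BDNF and 0.126 ± 0.044 in Naive cells, a difference of −0.13, with no overlap either. Over all genes, an exact two-sided permutation test of 3 libraries against 3 cannot give a p below 0.1, so no gene could pass. Of 5908 genes tested 0 had an adjusted p under 0.05 (0% called), 0 an unadjusted p under 0.05. Every Naive library was above every BDNF library in these 2 of the 10 genes and in 1.52% of tested genes, 2.19% of those of 50 kb or more. ANK2 had 0.307 ± 0.267 in BDNF and 0.153 ± 0.023 in Naive cells, and these groups overlapped. MAPT was the other gene with more per 1000 in BDNF, but it had 1 peak in each group, an unscaled difference of 0. MAP1B, DPYSL3, DCLK1 and STMN2 had 0 in BDNF, and GAP43 and DPYSL2 had no peak in either group.

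In the same 2 genes, ANK3 and MAP2, every BDNF+Dox library also stood above every BDNF library, which was so in 1.86% of protein-coding genes with a peak and in 2.62% of those of 50 kb or more. Both contrasts rest on the same 3 BDNF libraries. No member separated BDNF+Dox from Naive libraries in this way, where 1.97% of genes (2.86% of long ones) had every BDNF+Dox library higher and 1.01% (1.46%) every Naive library higher. No member had every BDNF library above every BDNF+Dox library (background 0.929%, or 1.31% of long genes) or above every Naive library (0.999%, or 1.4%). By the sum of absolute differences in peak counts over the 9 libraries, the genes most like ANK3 were ASCC3 (a sum of 5), MECOM (6) and DGKI (6).

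A list of 49 further genes of the same structures held 26, 22 and 21 peaks in BDNF+Dox libraries, 3, 4 and 14 in BDNF libraries and 11, 8 and 9 in Naive libraries. BDNF+Dox libraries were above all others, and BDNF replicate 3 stood apart from the other BDNF libraries, with 7 of its 14 peaks in NAV3. Per 1000 library peaks the BDNF+Dox libraries held at least 2.39 in these genes and the others at most 2.03. All protein-coding genes gave the same separation, with 419 or more in BDNF+Dox, at most 414 in BDNF and at most 395 in Naive libraries. The 49 genes were also listed with earlier results known, so nothing is read from the separation. A narrow pooled peak lay in 17 of the 49 over BDNF and in 13 over Naive, where 36.5 and 31.9% of genes of 50 kb or more and 14.7 and 13.1% of all protein-coding genes had one, and 29 of the 49 span 50 kb or more. The proteins of microtubule ends and linkers, long genes with a median of 403 kb, had a pooled narrow peak in 7 of 7 over BDNF and 6 of 7 over Naive, a count that no share for genes of such length stands beside and from which nothing is read. These genes, NAV1, NAV2, NAV3, CLASP2, CAMSAP2, MACF1 and DST, held 37 peaks in BDNF+Dox libraries, 11 in BDNF libraries and 17 in Naive libraries. NAV3 held 13, 7 and 7 of these, DST 8, 2 and 2, CLASP2 4, 0 and 2, and NAV2 3, 1 and 0. NAV1 had 1 in each group, and CAMSAP2 had 1, 0 and 3, most of them in Naive libraries. MACF1, which crosslinks actin and microtubules, had 1, 2 and 4 peaks in BDNF+Dox, 0 in every BDNF and 1, 0 and 1 in Naive libraries. GSK3B, a kinase of tau, had 1, 0 and 4 in BDNF+Dox libraries, and KIF5C, a kinesin heavy chain of axonal transport, 2, 2 and 0, with 0 in all BDNF and Naive libraries for both. Both could be named only through their BDNF+Dox peaks, pooled or in single libraries, so nothing is read from their contrast with the other groups. MAP6, DCX, DCLK2 and the dynein chain gene DYNC1I1 had 0, 2, 2 and 6 peaks over the BDNF+Dox libraries, 1, 1, 1 and 2 over the BDNF libraries and 0, 1, 2 and 5 over the Naive libraries. Neurofilament and tubulin genes, with a median of 5.33 kb, and the other stathmin genes held no peak in any library. The median length was 22.7 kb for these stathmin genes, against 55.0 kb for STMN2. No share for genes of such length stands beside this absence, so nothing is read from it.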

How the data were processed

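Peak lists of H4R3me2s ChIP-seq in 9 SH-SY5Y libraries over 1 Input, and of merged BDNF+Dox over merged BDNF or Naive reads, were used as deposited. The submitters' processing notes name cutadapt 1.1, Trimmomatic 0.32, Bowtie and the build GRCh38, and the lists came from MACS2 2.2.7.1. Per the file headers the p threshold was 0.01, 1 read was kept per position and treatment and control were scaled to the size of the smaller one. Per the file headers each peak has a pileup height (signal), a −log10 p-value, a −log10 q-value and a fold enrichment (a ratio to local background). The headers announce no q-values, yet the deposited column holds values, used as given.

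Gene spans came from RefSeq (GRCh38.p14), without exons, and unplaced contigs were left out of gene counts. Members and gene lists were chosen with earlier results of these data known. Groups and replicates follow the labels, in Python 3.11.15 with numpy 2.4.6 and pandas 2.3.3. BDNF and Naive libraries were compared per gene, without a block, by an exact two-sided permutation test over 20 assignments, with Benjamini-Hochberg adjustment over 5908 genes. Counting and test were tested on simulated data. Named beside the members were listed genes with a pooled peak at −log10 p of 5 or more or peaks in 2 libraries of a group, and the 3 genes most like the member with most peaks. Alternatives were a stricter threshold, other windows and overlaps, equal peak numbers, unscaled peak counts, left-out replicates and a replicate block. Without reads outside the listed peaks, no counting interval could be given. Sequences under the peaks are not analysed here.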

Additional observations from a re-analysis of the deposited data

How the results depend on the processing

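Peaks in the 10 genes per 1000 library peaks moved by less than 1 SD under a −log10 p of 3 or more, the gene span alone, overlap of 50% of the peak, equal peak numbers and 10 kb on each side, with 1 exception: with 10 kb the BDNF mean was 0.719. Leaving out a replicate gave 1.09 to 1.42 in BDNF+Dox, 0.401 to 0.614 in BDNF and 0.707 to 0.972 in Naive cells. The number of genes with a pooled peak over BDNF dropped to 4 at a −log10 p of 5 or more, since fewer peaks qualify. Pooled peaks with a BDNF+Dox library beneath numbered 1 to 3 over BDNF and 2 to 4 over Naive when 1 BDNF+Dox replicate was left out, 1 over BDNF without replicate 2 and 2 over Naive without replicate 2 or 3. A replicate block leaves the difference of BDNF minus Naive as it was in each of the 8 genes with a peak in either group. Of 72 values of this difference per gene, these 8 included, 66 kept their direction and 5 became 0. The MAPT difference became 0 with unscaled peak counts. It ranged from −0.042 to 0.0735 per 1000 with 1 replicate left out, negative without BDNF replicate 2, the only BDNF library with a MAPT peak. With a replicate block 0 genes were called since 3 pairs cannot give a p below 0.25. Same-numbered BDNF and Naive libraries had correlations from −0.066 to 0.011 over genes, and 1 of 6 libraries correlated best with its own number. Over all pairs of a BDNF and a Naive library the correlations ran from −0.066 to 0.0626. With all of them this small, they cannot decide whether the numbers pair the samples. Peaks of 4.51 to 9.41 stacked fragments limit what a single library can show.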
